A study of Mus musculus with 4 samples.

Results

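The cell cycle genes described here are 32 transcripts of dividing cells, 16 of S phase (DNA replication) and 16 of G2 and mitosis (G2/M). They were measured by single-cell RNA sequencing in mammary epithelium of mice whose glands turn from hyperplasia to tumor. The members came from a list of named genes. Each had to hold at least 10 unique molecular identifiers (UMIs, which count captured RNA molecules) over the cells with a deposited class, and 32 of 32 did, out of 31781 genes in the count tables. No measured difference between groups was used to choose them, although earlier results of these data were known.

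The 4 groups were hyperplastic glands and tumors of wild type (WT) MMTV-PyMT mice and of MMTV-PyMT mice in which protein kinase A (PKA) was activated. Both genotypes carried the polyoma middle T antigen behind the mouse mammary tumor virus promoter, which is active mainly in mammary epithelium. The sources used here do not say how PKA was activated, and no drug treatment was listed. Mice with hyperplasia were 8 to 9 weeks old. For mice with tumors the sample labels give 16 to 20 weeks, and the text on the series gives 22 weeks. Both tissues were dissociated with collagenase and hyaluronidase, but trypsin and dispase followed for glands only, so stage and digestion cannot be told apart. Cells were sorted by FACS before capture, but the gate is not described. The number of mice behind each library is not stated.

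Each group was 1 library, so no comparison below has a replicate check or a p-value. Totals over the annotated cells were 10648097 UMIs in 3818 cells for PKA hyperplasia, 10797950 in 3808 for WT hyperplasia, 16758734 in 2638 for PKA tumor and 24499374 in 5181 for WT tumor. Median UMIs per cell were 2557, 2637.5, 5890.5 and 4391 in the same order. Levels (CPM) are UMIs per 1000000 UMIs of the library or class. Intervals are exact 95% intervals for counting error alone and take each UMI as independent, which UMIs of the same cell are not. Pairs of libraries shared 16 to 24 cell barcodes, at most 0.758% of a library. The epithelial markers Epcam, Krt8 and Krt18 were abundant in all 4 libraries, and the pan-immune gene Ptprc had 0 to 4 UMIs per library. Levels were compared between libraries and not between genes, because a 3' UMI count depends on how well each transcript is captured.

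In S phase a cell copies its DNA. The MCM2 to MCM7 ring unwinds the double helix, PCNA clamps the polymerases to the template, and enzymes such as ribonucleotide reductase supply the nucleotides. In G2 and mitosis, CDK1 bound to B-type cyclins drives chromosome condensation and spindle assembly, and the anaphase-promoting complex with CDC20 and UBE2C then marks cyclin B and securin for destruction. E2F factors are known activators of many S phase genes, and the DREAM and MuvB complexes act at CHR elements of many G2/M promoters. Many of those promoters also carry CCAAT boxes. In PyMT tumors and in other cancers, these transcripts are widely used to mark proliferating cells.

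The promoters of the 2 sets differed in CHR and E2F elements, and less in CCAAT boxes. The promoter windows from RefSeq (GRCm38.p6, 250 bases before to 50 after the gene start) covered 29 of the 32 members, and Mcm4, Gins2 and Tpx2 had no entry. Matches were counted by gene, and a gene with several windows counted if any held a match. A CHR (TTTGAA or TTCGAA, both strands) stood in 12 of 15 G2/M members (80%) and in 2 of 14 S phase members (14.3%). Of 15468 measured genes with a window, 18.3% had one. An E2F motif (TTTCCCGC, TTTGGCGC, TTTCGCGC or TTTGCCGC, both strands) stood in 7 of 14 S phase members (50%) and 1 of 15 G2/M members (6.67%), against 3.66% of all genes. The CCAAT box (CCAAT, both strands) stood in 13 of 15 G2/M members (86.7%) and 10 of 14 S phase members (71.4%), against 41.8%. A CHR and a CCAAT box stood together in 12 of 15 G2/M members, against 8.57% of all genes. A match of letters is not a measured binding site.

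The promoters of 4 G2/M members are shown first, since their genes recur in the comparisons below. They are the last 120 bases before the start, 5′ to 3′ along the gene, with CHR and CCAAT matches on either strand in capitals. They lie on the minus strand at chr10:69352913-69353032 (Cdk1), chr4:118437344-118437463 (Cdc20) and chr11:99024190-99024309 (Top2a), and on the plus strand at chr2:164769809-164769928 (Ube2c).
Cdk1: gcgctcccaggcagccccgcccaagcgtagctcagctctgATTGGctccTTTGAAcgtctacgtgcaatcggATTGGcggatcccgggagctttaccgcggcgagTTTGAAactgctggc
Cdc20: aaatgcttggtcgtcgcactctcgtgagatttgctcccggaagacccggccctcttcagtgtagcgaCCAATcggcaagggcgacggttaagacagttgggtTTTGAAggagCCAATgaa
Top2a: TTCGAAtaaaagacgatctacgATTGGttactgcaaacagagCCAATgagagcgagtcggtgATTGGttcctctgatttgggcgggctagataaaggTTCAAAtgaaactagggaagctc
Ube2c: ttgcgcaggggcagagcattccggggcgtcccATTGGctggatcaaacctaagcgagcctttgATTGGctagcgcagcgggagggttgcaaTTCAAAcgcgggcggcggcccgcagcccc
For contrast, 2 S phase promoters follow, with E2F and CCAAT matches in capitals. They lie at chr1:128359706-128359825 on the minus strand (Mcm6) and at chr19:38930870-38930989 on the plus strand (Hells). The first run of capitals in Mcm6 is a pair of overlapping E2F matches on opposite strands.
Mcm6: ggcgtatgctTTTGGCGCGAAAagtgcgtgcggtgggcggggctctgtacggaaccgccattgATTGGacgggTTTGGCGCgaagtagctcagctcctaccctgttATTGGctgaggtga
Hells: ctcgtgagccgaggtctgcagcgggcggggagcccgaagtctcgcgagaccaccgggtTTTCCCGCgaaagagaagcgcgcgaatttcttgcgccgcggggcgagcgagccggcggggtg

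S phase members together were highest in WT tumor and lowest in PKA hyperplasia. Their summed level was 274 CPM (267 to 280) in WT tumor, 209 (201 to 218) in WT hyperplasia, 205 (198 to 212) in PKA tumor and 151 (144 to 159) in PKA hyperplasia. The intervals of WT hyperplasia and PKA tumor overlapped, and the other neighbours in that order did not. Of the 16 members, 11 were highest in WT tumor and 10 were lowest in PKA hyperplasia. The share of all genes with that order was not counted. Over all genes tested, the median log2 ratio of tumor to hyperplasia was 0.35 in WT and 0.29 in PKA. In such sums over a library, fewer dividing cells and less RNA per cell cannot be told apart.

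G2/M members were ordered differently. Their summed level was 127 CPM (123 to 132) in WT tumor, 119 (112 to 126) in WT hyperplasia, 111 (105 to 118) in PKA hyperplasia and 78.7 (74.5 to 83.1) in PKA tumor. PKA tumor stood apart at the bottom, while the intervals of each other pair of neighbours overlapped. Of the 16 members, 9 were lowest in PKA tumor, and the share of all genes lowest there was not counted. The genes below are plotted by library in the chart of member levels.

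**Figure D1:**
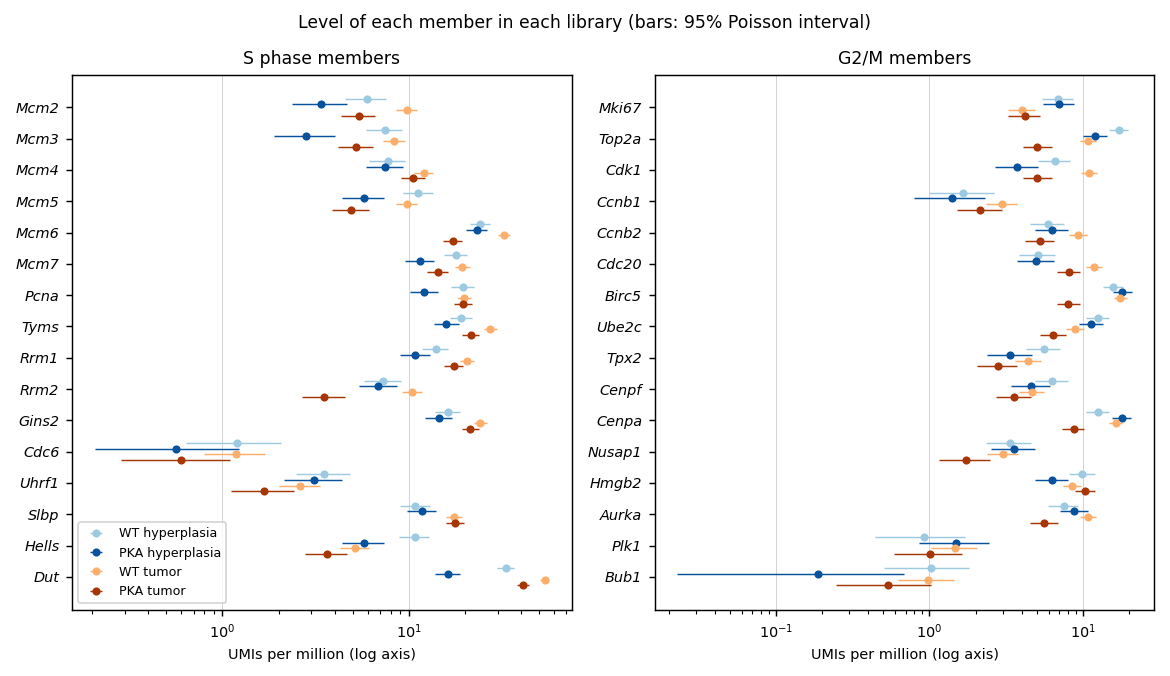
Level of each of the 32 members in CPM (log axis) in the 4 libraries, 1 point per library with its exact 95% Poisson interval, S phase and G2/M members apart. WT tumor was highest for 11 of 16 S phase members, and PKA tumor was lowest for 9 of 16 G2/M members. Shares of all genes were not counted for these orders.

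In the sums over hyperplasia libraries, S phase members were lower with PKA activation, and G2/M members were not distinguishable from WT within counting error. The log2 ratio of PKA to WT was -0.47 (-0.56 to -0.37) for the S phase sum and -0.09 (-0.21 to 0.02) for the G2/M sum. An unweighted mean over the hyperplasia classes left the S phase ratio at -0.16 and moved the G2/M ratio to 0.38. A gene was counted as higher or lower where it was at least 2-fold apart and its interval left out 0. Of 16671 genes with 10 UMIs or more over the libraries compared, 2.75% were higher and 2.52% lower by that measure. Among S phase members 0 were higher and 2 of 16 lower, and among G2/M members 0 were higher and 1 of 16 lower. With no minimum fold, the interval lay below 0 for 8 S phase and 5 G2/M members, against 13.5% of all genes, and above 0 for 0 and 1, against 13.4%. The median log2 ratio was -0.50 over S phase members and -0.08 over G2/M members, against 0.01 over all genes tested.

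The MCM ring subunits were not shifted alike in hyperplasia. Mcm3 stood at 2.82 CPM in PKA and 7.41 in WT, a log2 ratio of -1.39 (-2.05 to -0.77). Mcm5 stood at 5.73 and 11.2 CPM (-0.97, -1.44 to -0.51), and Mcm2 at 3.38 and 5.93 CPM (-0.81, -1.44 to -0.20). Mcm7, at 11.5 and 17.9 CPM, was lower by less (-0.64, -0.98 to -0.31). Mcm4 (7.42 and 7.69 CPM) and Mcm6 (23.1 and 24.1 CPM) differed by less than counting error. Summed over the 6 subunits, the level was 53.9 CPM in PKA and 74.2 in WT.

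Among nucleotide enzymes, Dut, which removes dUTP, had 16.2 CPM in PKA and 33.0 in WT hyperplasia, a log2 ratio of -1.03 (-1.30 to -0.76). The others were closer. Tyms, which makes thymidylate, had 15.9 and 19.1 CPM, and Rrm2, the regulated subunit of ribonucleotide reductase, had 6.86 and 7.22. Rrm1, its large subunit, had 10.8 and 13.9 CPM with an interval that ended just below 0. Pcna had 12.1 CPM in PKA hyperplasia and between 19.4 and 19.8 in the other 3 libraries, which differed from each other by less than counting error. Hells, a chromatin remodeller of DNA methylation, had 5.73 CPM against 10.7 (-0.91, -1.38 to -0.45), whereas Slbp, which binds histone mRNA, had 11.7 and 10.8.

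Of the G2/M members in hyperplasia, Bub1, a spindle checkpoint kinase, was the 1 past the 2-fold measure, on 2 UMIs in PKA and 11 in WT. Its log2 ratio of -2.44 had an interval from -5.65 to -0.24. Top2a, the topoisomerase that untangles sister chromatids, had 12.1 CPM in PKA and 17.2 in WT (-0.51, -0.84 to -0.18). Cdk1 had 3.76 and 6.58 CPM (-0.81, -1.40 to -0.23), Tpx2, a spindle assembly factor, 3.38 and 5.56 (-0.72, -1.36 to -0.10), and Hmgb2, a chromatin protein, 6.29 and 9.91 (-0.66, -1.12 to -0.20). Cenpa, the histone variant of centromeres, went the other way, at 17.9 CPM in PKA and 12.6 in WT (0.51, 0.19 to 0.84). Mki67, Ccnb2, Cdc20, Ube2c, Birc5, Nusap1 and Aurka each had an interval that held 0.

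In the sums over tumor libraries, both sets were lower with PKA activation. The log2 ratio of PKA to WT was -0.42 (-0.48 to -0.36) for the S phase sum and -0.69 (-0.78 to -0.60) for the G2/M sum. An unweighted mean over the 4 tumor classes turned the G2/M ratio to 0.25 and left the S phase ratio at -0.29. By the 2-fold measure, 0 S phase members were higher and 1 of 16 lower, and 0 G2/M members were higher and 3 of 16 lower. Of all 20146 genes tested, 7.2% were higher and 5.97% lower. The interval lay below 0 for 10 of 16 S phase and 10 of 16 G2/M members, against 28% of all genes, and above 0 for none of the 32, against 21.6%. The median log2 ratio was -0.46 over S phase and -0.72 over G2/M members, against -0.01 over all genes.

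**Figure D2:**
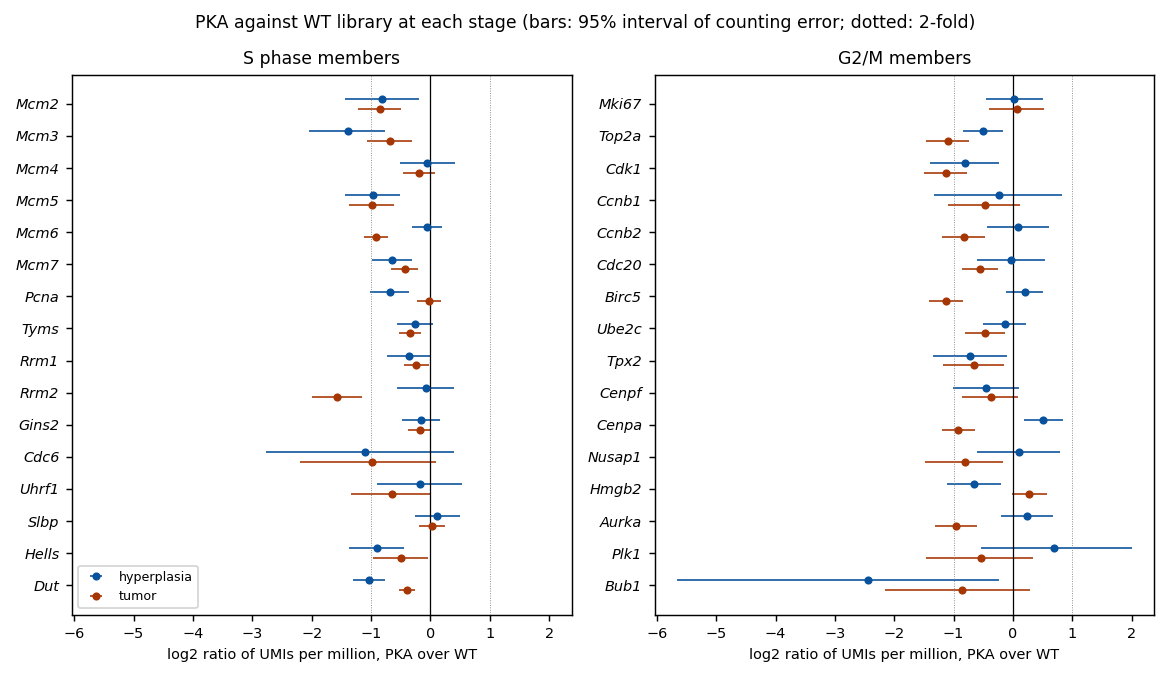
Log2 ratio of CPM of PKA to WT for each member in hyperplasia and in tumor, with exact 95% intervals. The solid line marks equal levels and the dotted lines a 2-fold difference. In tumors, 15 of 16 S phase and 14 of 16 G2/M members lay below 0.

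The G2/M members past the 2-fold measure in tumors were Birc5, Cdk1 and Top2a. Birc5, the survivin subunit of the chromosomal passenger complex, stood at 8.06 CPM in PKA tumor against 17.6 in WT tumor (-1.13, -1.42 to -0.85), whereas in hyperplasia it stood at 18.1 and 15.8. Cdk1 stood at 5.07 and 11.1 CPM (-1.12, -1.49 to -0.77). Top2a stood at 5.07 and 10.8 CPM (-1.09, -1.46 to -0.73). Aurka, a spindle pole kinase, stood at 5.61 and 10.9 CPM (-0.95, -1.31 to -0.61), and Cenpa at 8.71 and 16.5 (-0.92, -1.20 to -0.64). Cenpa thus lay above WT in hyperplasia and below it in tumors, and the difference between those ratios was not tested.

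Mki67 and Hmgb2 were at or above WT in PKA tumor, each with an interval that held 0. Mki67, the proliferation antigen that coats mitotic chromosomes, had 4.18 CPM in PKA and 4.00 in WT. Hmgb2 had 10.4 and 8.57 CPM. By role, the kinases and cyclins together (Cdk1, Ccnb1, Ccnb2, Aurka and Plk1) had 19.1 CPM in PKA tumor and 35.7 in WT tumor, and the checkpoint and centromere genes (Birc5, Cenpf, Cenpa and Bub1) 20.9 and 39.8. The chromosome structure genes (Mki67, Top2a and Hmgb2) had 19.6 and 23.4.

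The S phase member furthest below WT in tumors was Rrm2, at 3.52 CPM in PKA against 10.4 in WT (-1.57, -2.0 to -1.16). Its partner subunit Rrm1 had 17.4 and 20.5 CPM (-0.24, -0.45 to -0.03), so the subunits of ribonucleotide reductase were not shifted alike. Mcm5 had 4.89 and 9.71 CPM (-0.99, -1.37 to -0.62), and Mcm6 had 17.2 and 32.4 (-0.92, -1.11 to -0.72). Mcm4 had 10.6 and 12.0 CPM, an interval that held 0. Pcna (19.5 and 19.8 CPM) and Slbp (17.7 and 17.4 CPM) were each within counting error of equal.

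Between stages the scale of all genes moved, so members are given with that background. The median log2 ratio of tumor to hyperplasia over all genes tested was 0.35 in WT and 0.29 in PKA, and TMM scaling lowered every ratio by 0.20 and 0.19. Whether counting was the same at both stages was not tested. Pfn1, which encodes the abundant actin-binding protein profilin, had 20537 and 21505 UMIs in the hyperplasia libraries but 591 and 968 in the tumor libraries.

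Of 19402 genes tested between WT stages, 24.8% were higher and 9.41% lower in tumor by the 2-fold measure. Among S phase members 0 were higher and 1 of 16 lower, and among G2/M members 1 of 16 was higher and 0 lower. The S phase sum had a log2 ratio of 0.39 (0.32 to 0.46), near the median of all genes. The G2/M sum had 0.10 (0.00 to 0.19), below that median, and -0.11 (-0.20 to -0.01) with TMM scaling, so its direction turned with the scaling. Cdc20, the activator of the anaphase-promoting complex, was the member higher, at 11.9 CPM in tumor against 5.09 (1.22, 0.80 to 1.66). Hells was the member lower, at 5.14 against 10.7 (-1.06, -1.44 to -0.69). Cdk1 (0.75), Ccnb2 (0.65) and Aurka (0.53) had ratios above the median of all genes, while Mki67 (-0.80), Top2a (-0.67) and Ube2c (-0.49) had ratios below 0, with intervals that left out 0. With no minimum fold, the interval lay above 0 for 9 S phase and 6 G2/M members, against 43.7% of all genes, and below 0 for 1 and 3, against 22%.

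In PKA mice, 18755 genes were tested between stages, and 24.8% were higher and 9.17% lower in tumor. Among S phase members 1 of 16 was higher and 0 lower, and among G2/M members 0 were higher and 4 of 16 lower. The S phase sum had a log2 ratio of 0.44 (0.35 to 0.53), and the G2/M sum -0.50 (-0.62 to -0.39), or -0.69 with TMM scaling. Dut was higher in tumor, at 40.8 CPM against 16.2 (1.34, 1.09 to 1.59), and the S phase sum without it had a ratio of 0.28. The G2/M members lower were Top2a (-1.26, -1.67 to -0.85), Birc5 (-1.17, -1.5 to -0.85), Cenpa (-1.04, -1.36 to -0.72) and Nusap1, which bundles spindle microtubules (-1.04, -1.79 to -0.31). Cdc20 (0.71, 0.24 to 1.19) and Hmgb2 (0.72, 0.31 to 1.15) had intervals above 0. With no minimum fold, the interval lay above 0 for 10 S phase and 2 G2/M members, against 42.1% of all genes, and below 0 for 4 and 7, against 24.5%. The stage comparisons share libraries with the PKA comparisons, so they are not independent of them.

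The authors' cell classes placed the members in different cells at each stage. Per the text on the series, these came from Monocle2 and marker genes. Hyperplasia had Basal, Mature Luminal and Luminal Progenitor classes, and Lumino-Basal and EMT-like classes appeared in tumors. In hyperplasia there were 2 progenitor classes, and the smaller, Luminal Progenitor 2, held most of the G2/M RNA of annotated cells. It had 12.4% of the UMIs of annotated PKA hyperplasia cells but 55.1% of their G2/M UMIs, and 20.0% and 50.6% in WT hyperplasia. The classes were built from the same cells, so this is a description. Barcodes without a class, described below, held 38.1% of all G2/M UMIs in PKA and 35.4% in WT hyperplasia. The levels are drawn in the bar chart of classes.

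**Figure D3:**
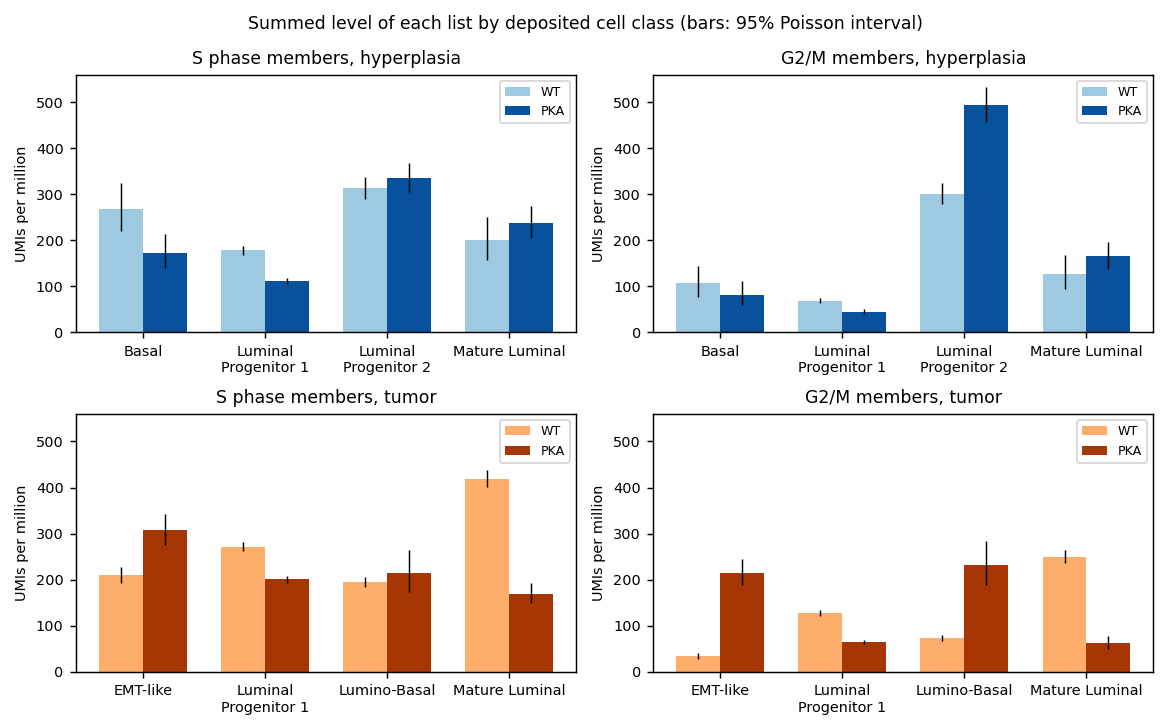
Summed S phase and G2/M levels in CPM by authors' class and library, bars from 0 with exact 95% Poisson intervals. In hyperplasia Luminal Progenitor 2 carried 494 (PKA) and 301 (WT) CPM of G2/M members, and in WT tumor Mature Luminal carried 250.

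Within Luminal Progenitor 2, G2/M members were higher with PKA. The sum was 494 CPM in PKA and 301 in WT hyperplasia, a log2 ratio of 0.71 (0.56 to 0.87). Of 15 G2/M members tested, 3 were higher and 0 lower, against 1.8% and 1.98% of genes in that class. These were Ccnb2 (1.48), Birc5 (1.05) and Cdc20 (1.04), and Birc5 stood at 102 CPM in PKA and 49.1 in WT. S phase members were near equal there, at 335 and 314 CPM (0.09, -0.08 to 0.27). UMIs of at least 3 G2/M members were held by 43 of 454 PKA cells (9.47%, 6.94 to 12.5) and 40 of 770 WT cells (5.19%, 3.74 to 7.01). With each cell thinned to 2000 UMIs and 178 and 309 shallower cells left out, these were 30 of 276 (10.9%, 7.45 to 15.2) and 30 of 461 (6.51%, 4.43 to 9.16), with intervals that overlapped.

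Within Luminal Progenitor 1, the largest class, both sets were lower with PKA in hyperplasia. G2/M members summed to 45.2 CPM in PKA and 69.0 in WT (-0.61, -0.81 to -0.42), and S phase members to 112 and 178 (-0.67, -0.80 to -0.55). Of 15 S phase members tested, 5 were lower (Mcm2, Mcm3, Mcm5, Hells and Dut), and of 13 G2/M members, 4 were lower (Top2a, Ccnb2, Tpx2 and Cenpf), against 2.63% of genes. None was higher, against 2.01% of genes. Luminal Progenitor 1 held 364 G2/M UMIs in PKA and 542 in WT hyperplasia, whereas Luminal Progenitor 2 held 654 and 650, since it had fewer cells in PKA (454 against 770), and Mature Luminal held 126 and 49. Cells with at least 3 G2/M members numbered 9 of 2885 in PKA and 26 of 2722 in WT.

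In WT hyperplasia, the G2/M level of Basal cells rested on a few cells that carried markers of other cell types, which was not so in PKA hyperplasia. G2/M members summed to 81.9 CPM in PKA and 107 in WT Basal cells. Of 8 S phase members tested 0 were higher or lower, and of 3 G2/M members 1 (Top2a) was lower, against 2.17% of genes higher and 2.97% lower. In WT, 5 Basal cells held at least 3 G2/M members, and 5 of those 5 also held at least 2 fibroblast or endothelial markers. In PKA, 0 of 2 such cells held them. Leaving out the 31 of 200 WT and 24 of 228 PKA Basal cells with at least 2 markers of any 1 other cell type gave 18.9 CPM in WT and 89.5 in PKA. The log2 ratio moved from -0.39 (-1.03 to 0.26) to 2.24 (1.0 to 3.77) for G2/M members, and from -0.63 to 0.10 (-0.42 to 0.63) for S phase members. The G2/M level left in WT rested on few UMIs, and 1 PKA Basal cell held 16 of the 42 G2/M UMIs of its class. Over the whole WT library, leaving out cells with any other type's markers moved the G2/M sum only from 119 to 117 CPM.

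Aurka was highest in Mature Luminal cells in all 4 libraries. In PKA hyperplasia the other 15 of 16 G2/M members were highest in Luminal Progenitor 2. In WT hyperplasia 12 of 16 were, Nusap1 and Plk1 were highest in Basal cells, and Hmgb2 was highest in Mature Luminal cells (18.2 CPM), as it was in PKA tumor (17.5 CPM). Nusap1 had 36 and Plk1 10 UMIs in all annotated cells of WT hyperplasia. How many of all genes were highest in each class was not counted. Aurka stood at 69.7 CPM in Mature Luminal cells of PKA hyperplasia against 9.82 in Luminal Progenitor 2, and at 65.1 against 11.1 in WT hyperplasia. In tumors it was again highest in Mature Luminal, at 22.3 CPM in PKA and 39.3 in WT, with no other class above 9.76. Of the 126 G2/M UMIs of Mature Luminal cells in PKA hyperplasia, 53 were of Aurka, and in WT hyperplasia 25 of 49. The S phase sum of these cells was 238 CPM in PKA and 200 in WT hyperplasia (0.25, -0.14 to 0.65). Between these classes of PKA and WT, Birc5 was the 1 of 6 G2/M members and Mcm6 the 1 of 9 S phase members higher with PKA, against 3.71% of genes, and 0 were lower, against 4.48%. Mcm6 had its highest level in Mature Luminal cells as well in 3 libraries, such as 89.4 CPM in PKA hyperplasia, but in PKA tumor it was higher in EMT-like cells.

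In WT tumor, where the share of all genes highest in each class was not counted, Mature Luminal cells had the highest level of 16 of 16 G2/M members. Their G2/M sum was 250 CPM in WT and 62.1 in PKA tumor (-2.01, -2.33 to -1.70), and their S phase sum 419 and 169 (-1.31, -1.51 to -1.12). Of 15 G2/M members tested in that class, 12 were lower in PKA, and of 16 S phase members 10 were lower, against 2.72% of genes. None of either set was higher, against 7.67% of genes. Mcm5 (-3.59), Rrm2 (-3.37), Cdk1 (-3.59) and Birc5 (-3.67) were among them. The PKA value rested on 177 cells, of which 2 held at least 3 G2/M members, against 33 of 872 in WT.

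Luminal Progenitor 1 of tumors was also lower with PKA, with a G2/M sum of 65.2 CPM in PKA and 127 in WT (-0.96, -1.08 to -0.83) and an S phase sum of 201 and 271 (-0.43, -0.51 to -0.36). Of 16 G2/M members 9 were lower and 0 higher, and of 16 S phase members 3 were lower and 0 higher, against 4.41% lower and 7.2% higher of genes. A single cell of the PKA class held 150 of its 902 G2/M UMIs, and without the richest cell of each library the ratio was -1.13.

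EMT-like cells of tumors went the other way. Their G2/M sum was 215 CPM in PKA and 33.5 in WT (2.68, 2.31 to 3.06), and their S phase sum 308 and 209 (0.56, 0.36 to 0.76). Of 11 G2/M members tested 8 were higher, and of 14 S phase members 2 (Mcm5 and Hells), against 7.02% of genes, and 0 were lower, against 4.56%. The G2/M value rested on few cells, since 6 of 238 PKA and 1 of 768 WT cells held at least 3 members. The richest PKA cell held 72 of 233 G2/M UMIs, and without the richest cell of each library the ratio was 2.23.

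Lumino-Basal cells gave a G2/M sum of 232 CPM in PKA and 72.2 in WT tumor (1.68, 1.35 to 2.0), with 7 of 14 members higher against 7.47% of genes and 0 lower against 7.16%. A single one of the 66 PKA cells held 82 of the 95 G2/M UMIs. Without the richest cell of each library the PKA level was 32.8 CPM and the ratio -1.02 (-1.94 to -0.23), so 1 cell decided the direction.

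Luminal Progenitor 1 and Mature Luminal existed at both stages. From hyperplasia to tumor in WT, G2/M members had a log2 ratio of 0.88 (0.73 to 1.02) in Luminal Progenitor 1 and 0.97 (0.56 to 1.41) in Mature Luminal. In PKA mice the ratios were 0.53 (0.35 to 0.71) and -1.42 (-1.82 to -1.01). S phase members had 0.61 and 1.06 in WT and 0.85 and -0.49 in PKA, in the same order of classes. In WT Luminal Progenitor 1, 7 of 16 G2/M and 2 of 16 S phase members were higher in tumor and 0 lower, against 24.7% and 10.3% of genes. In WT Mature Luminal, 4 of 15 G2/M and 6 of 16 S phase members were higher and 0 lower, against 9.82% and 10% of genes. In PKA Luminal Progenitor 1, 4 of 15 G2/M and 5 of 15 S phase members were higher and 0 lower, against 26.9% and 8.55%. In PKA Mature Luminal, 0 of 7 G2/M members were higher and 4 lower (Birc5, Cenpf, Cenpa and Aurka), and of 12 S phase members Dut was higher and Mcm6 lower, against 15.1% and 6.12%. No class named Luminal Progenitor 2 was among the tumor annotations, so the class with most of the annotated G2/M RNA in hyperplasia has no counterpart by name.

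Shares of cells were compared at a fixed depth because deeper cells show more members. Each cell was thinned to 2000 UMIs, and 1148 of 3818 cells of PKA hyperplasia, 1090 of 3808 of WT hyperplasia, 187 of 2638 of PKA tumor and 428 of 5181 of WT tumor were shallower and left out. At least 2 S phase members were then seen in 3.22% (2.58 to 3.96) of PKA and 5.30% (4.49 to 6.21) of WT hyperplasia cells, and in 5.26% (4.41 to 6.22) of PKA and 8.25% (7.48 to 9.07) of WT tumor cells. At least 2 G2/M members were seen in 2.25% (1.72 to 2.88) and 2.5% (1.95 to 3.16) of hyperplasia cells and in 1.02% (0.661 to 1.5) and 1.75% (1.39 to 2.16) of tumor cells, PKA first.

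Not thinned, the S phase shares were 5.63% and 7.90% in hyperplasia and 27.9% and 22.6% in tumors, PKA first, so the order of the tumor libraries turned with depth. The G2/M shares were 2.33%, 3.05%, 2.58% and 3.44% in hyperplasia (PKA, WT) and tumor (PKA, WT). No class among these cells is known to lack the members, so the part of free RNA in the shares was not tested.

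G2/M RNA sat in few cells. Cells with UMIs of at least 3 G2/M members numbered 59 in PKA hyperplasia (1.55%), 72 in WT hyperplasia (1.89%), 25 in PKA tumor (0.948%) and 97 in WT tumor (1.87%). Among annotated cells, they held 65.0%, 69.6%, 63.8% and 70.1% of G2/M UMIs, but 2.51%, 2.97%, 1.59% and 3.13% of all UMIs. In PKA tumor the 10 richest annotated cells alone held 50.8% of those G2/M UMIs, against 22.8% to 25.0% in the other 3 libraries. The cells with at least 3 members had more RNA, with median UMIs of 4707, 4653, 11145 and 8003 against 2482, 2565, 5524 and 4188 in cells with none, in the same order of libraries. Of cells with at least 2 G2/M members, 62.9% to 69.7% also held at least 2 S phase members. Of all annotated cells, 5.63% of PKA hyperplasia, 7.90% of WT hyperplasia, 27.9% of PKA tumor and 22.6% of WT tumor did. None of these shares was taken at a fixed depth.

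Members differed in how far their RNA lay in those cells, as the plot of concentration shows. Among annotated cells, the share of each member's UMIs was taken in cells with at least 2 other members of its set. Over G2/M members the median was 72.5% in PKA hyperplasia, 75.0% in WT hyperplasia, 71.5% in PKA tumor and 81.5% in WT tumor. The cells concerned held between 2.75% and 5.25% of all UMIs. Over S phase members it was 31.1%, 49.5%, 47.6% and 52.2% in the same order, but their cells held 6.45% to 7.55%, 9.65% to 11.1%, 29.6% to 36.9% and 22.8% to 28.9% of all UMIs, so the S phase medians of the stages are not on the same footing. Ccnb1, the cyclin partner of CDK1, had 93.2% to 97.2% of its UMIs in such cells. Among S phase members, Rrm2 had 76.3% to 83.3%. Aurka (16.0% to 24.8%) and Hmgb2 (13.2% to 31.8%) had the lowest G2/M shares in all 4 libraries, though above the 2.75% to 4.67% of all UMIs in the same cells. Slbp had 9.60% and 18.8% in PKA and WT hyperplasia, where the cells held 6.95% and 10.2% of all UMIs. In PKA and WT tumor it had 30.3% and 23.7%, below the 34.0% and 26.3% of all UMIs there.

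**Figure D4:**
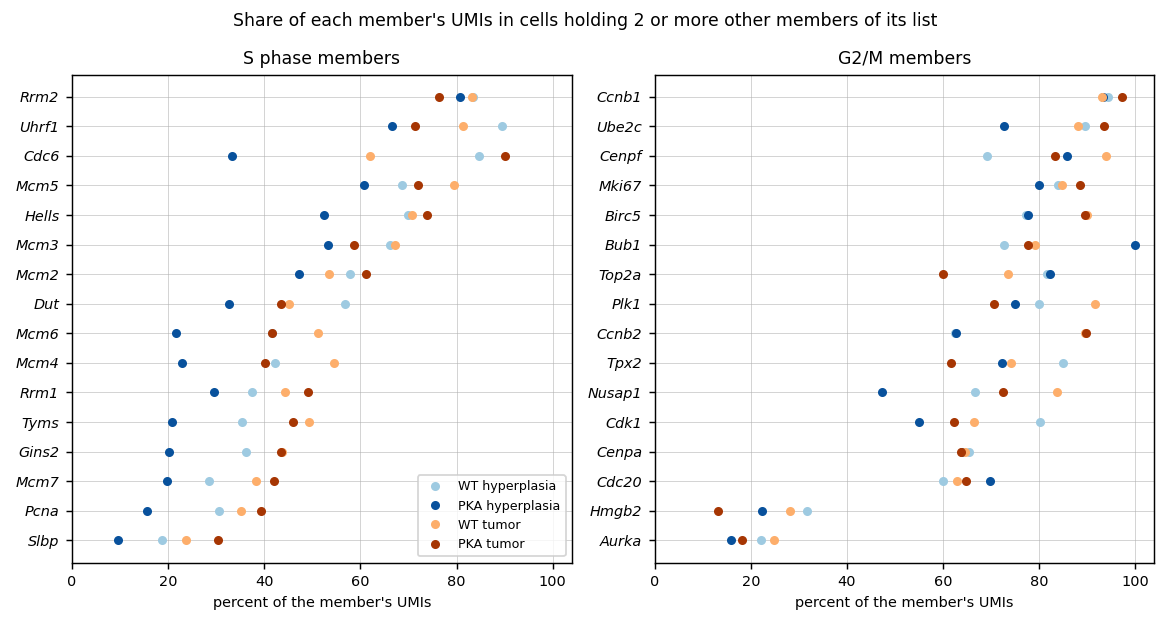
Percent of each member's UMIs, over annotated cells, found in cells with UMIs of at least 2 other members of its set, 1 point per library. Ccnb1 lay at 93.2% to 97.2% and Aurka at 16.0% to 24.8%.

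Of genes outside the list, those most concentrated in G2/M cells were ranked by the lowest log2 ratio over the 4 libraries between cells with at least 3 members and cells with none. The first 10 of 1904 eligible genes were Pclaf, Cdca3, Ccna2, Pbk, Cdkn3, Cenpm, Spc24, Knstrn, Racgap1 and Cdca8. The lowest ratio was 7.30 for Pclaf, which binds PCNA, 7.0 for the cyclin Ccna2 and 4.67 for Cdca8, a chromosomal passenger subunit. These cells were chosen by G2/M members, so the ratios describe likeness and carry no test. In WT tumor the cells with at least 3 members also held Dcn, a fibroblast gene, at 355 CPM against 168 in cells with none. Dcn had UMIs in 16 of those 97 cells and was the only 1 of 6 fibroblast markers seen in them. Of the 97 cells, 0 held at least 2 markers of any 1 other cell type. In WT hyperplasia the endothelial markers stood at 119 against 10.2 CPM, and 3 of the 72 cells held at least 2 of them. With cells that held at least 2 markers of any 1 other cell type left out, the log2 ratio of PKA to WT for the G2/M sum was -0.06 in hyperplasia and -0.69 in tumors.

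Other genes of the cycle, from lists chosen with earlier results known, gave counts for the same comparisons. Of 38 other mitotic genes tested in tumors, 7 were lower and 0 higher with PKA, against 5.97% and 7.2% of all genes, and the median log2 ratio was -0.61, against -0.01. Of 32 other replication genes 4 were lower and 0 higher, with a median of -0.46. The lowest were Aurkb, the kinase of the chromosomal passenger complex, at 0.895 and 3.59 CPM (-2.0, -2.90 to -1.21), and Ccne1, the cyclin E of S phase entry, at 1.31 and 3.51 (-1.42, -2.17 to -0.73). Gmnn, which blocks relicensing of origins, stood at 7.94 and 17.5 CPM (-1.14, -1.43 to -0.86).

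Some genes of G1 and of cell cycle arrest were lower in PKA tumor as well. Ccnd1, the cyclin D1 that opens G1, stood at 46.0 CPM in PKA tumor and 123 in WT tumor (-1.42, -1.53 to -1.30). Ccnd2, the cyclin D2 gene, stood at 0.597 and 3.14 CPM, on 10 and 77 UMIs (-2.40, -3.51 to -1.44). Cdkn1a, the p21 inhibitor of CDKs, stood at 198 and 510 CPM (-1.37, -1.42 to -1.31), and Cdkn1c, p57, at 5.25 and 16.9 (-1.68, -2.03 to -1.35). Of the 19 G1 genes tested 2 were lower and 0 higher, and of 16 arrest genes 3 were lower and 0 higher, beside the same 5.97% and 7.2% of all genes. Rb1, the retinoblastoma gene, was at 88.6 and 66.1 CPM (0.42, 0.32 to 0.53).

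In hyperplasia 3 of 16 arrest genes were higher with PKA and 0 lower, against 2.75% and 2.52% of all genes. Of 31 other replication genes 0 were higher and 4 lower, of 37 other mitotic genes 1 and 2, and of 20 G1 genes 1 and 1. Cdkn2c, which encodes p18, stood at 20.0 CPM in PKA and 8.80 in WT (1.19, 0.83 to 1.55), and Cdkn1c at 6.57 and 2.96 (1.15, 0.53 to 1.80). Ccnd2, which was below WT in PKA tumor, stood above it here, at 4.32 and 1.94 CPM (1.15, 0.38 to 1.97). Clspn, a replication checkpoint adaptor, was lower at 1.78 and 4.26 CPM (-1.26, -2.11 to -0.46), and Ckap2, a spindle protein, at 1.13 and 3.89 (-1.79, -2.85 to -0.84). Trp53 stood at 81.1 and 129 CPM (-0.67, -0.80 to -0.55).

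Between WT stages, 8 of 16 arrest genes were higher and 1 lower in tumor, against 24.8% and 9.41% of all genes, with a median log2 ratio of 1.09 against 0.35. Between PKA stages 6 were higher and 2 lower, against 24.8% and 9.17%, with a median of -0.02 against 0.29. Other mitotic genes had 6 of 38 higher and 0 lower in WT and 3 of 36 higher and 6 lower in PKA, and other replication genes 4 and 2 of 32 in WT and 3 and 2 of 32 in PKA. Cdkn2a, the p16 and p19ARF locus, stood at 31.6 CPM in WT tumor and 1.02 in WT hyperplasia (4.96, 4.11 to 5.96), and at 27.7 and 2.72 in PKA (3.35, 2.80 to 3.94). Gadd45a, a stress response gene, was lower in tumor in both genotypes, with ratios of -2.75 in WT and -1.90 in PKA.

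Barcodes that the authors counted but left out of their annotation held much of the G2/M RNA. Their G2/M sum was 617 CPM in PKA hyperplasia, 570 in WT hyperplasia, 87.4 in PKA tumor and 1312 in WT tumor, and they held 38.1%, 35.4%, 2.73% and 31.3% of all G2/M UMIs of the count tables. Among them, 32, 37, 2 and 25 barcodes had more genes than any annotated cell, that is more than 2899, 2985, 5513 and 4419 genes. Those few held 29.1%, 20.3%, 1.62% and 23.4% of the G2/M UMIs, on 2.5%, 2.94%, 0.262% and 1.54% of all UMIs. In 17, 16, 1 and 16 of them at least 3 G2/M members were seen, and each held at least 2 of the 3 epithelial markers. Whether they were doublets or large dividing cells was not tested, and the sources used here do not give the filter.

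**Figure D5:**
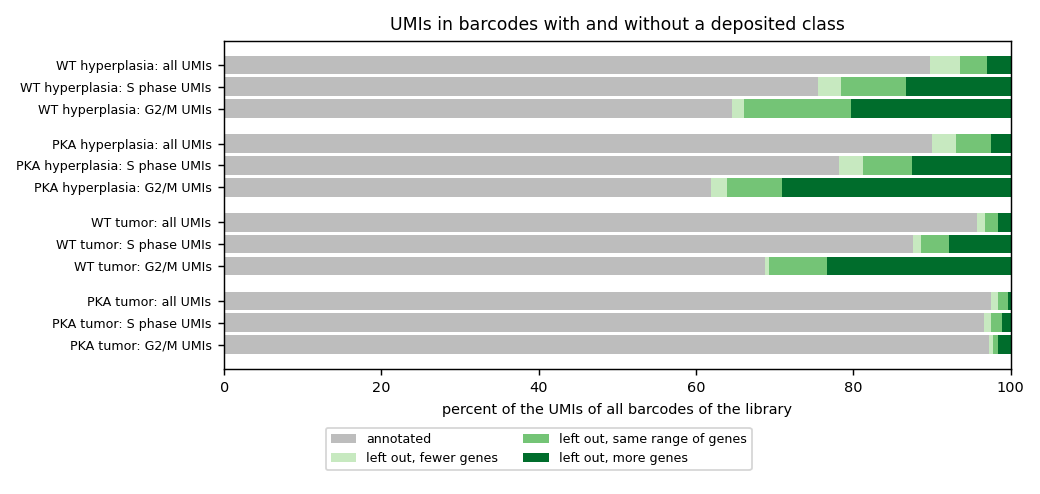
Percent of all UMIs, of S phase UMIs and of G2/M UMIs of each library, as stacked bars. The parts are annotated cells and barcodes left out with fewer genes, the same range of genes or more genes than annotated cells. Barcodes left out of WT tumor held 31.3% of its G2/M UMIs, on 4.22% of all its UMIs.

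Adding those barcodes with more genes changed the counts in tumors. The log2 ratio of PKA to WT for the G2/M sum moved from -0.69 to -1.07, and 10 of 16 G2/M members were lower in place of 3. Of 20183 genes tested with these barcodes, 6.11% were lower and 7.17% higher. In hyperplasia the G2/M ratio moved from -0.09 to 0.074. The S phase ratio moved from -0.42 to -0.50 in tumors, and 3 of 16 S phase members were lower in place of 1.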

How the data were processed

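The 4 groups had 1 single-cell 3' RNA library each (10x Chromium, version 2 chemistry). The submitters' processing notes name STAR 2.5.3a, featureCounts of Subread 1.6.0, Cell Ranger and GRCm38/mm10, with an annotation release not given in the sources used here. Deposited tables give raw UMI counts by gene for each barcode. The authors' per-cell tables give the fraction of mitochondrial UMIs and a class, assigned with Monocle2 per the text on the series. The filter between barcodes (4858 in PKA and 5179 in WT hyperplasia, 2934 in PKA and 5800 in WT tumor) and annotated cells is not stated.

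UMIs were summed over annotated cells, since cells are not replicates, and scaled to CPM. No test was made. Log2 ratios carry exact 95% conditional binomial intervals, levels exact Poisson and shares Clopper-Pearson intervals, all for counting error only. Genes with 10 UMIs or more over the libraries compared were examined for a 2-fold difference. Within classes, at least 50 cells were required in both libraries. Medians used 0.5 added UMIs. The ratio steps were tested on simulated data.

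The members, the other cell cycle lists and the markers were chosen with earlier results of these data known. Named were all 32 members; per comparison and other list, genes among the 2 highest and 2 lowest ratios with at least 50 UMIs; and the 10 genes most concentrated in cells with at least 3 G2/M members, with at least 20 UMIs there in every library. Pfn1 was named after its values were seen. Fen1 of the lists was not analysed here. Rows of processed pseudogenes of Ccnb1, Ccnb2, Pcna and Tyms held at most 16 UMIs per library and were not added. Whether genes that overlap or lie antisense shared reads was not tested.

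Scrublet called 45 of 15445 cells (0.291%), so low a share that it was taken not to have worked, and no doublets were removed. For shares of cells, each cell was thinned to 2000 UMIs. Alternatives were TMM factors, other totals, per-cell and per-class means, other cell filters, other minimums and folds, and other thinning. Chosen after seeing the data were adding barcodes with more genes than any annotated cell, leaving out the cell richest in a list, leaving out cells with markers of other types, and shares without thinning. Tools were edgeR 4.0.16 (R 4.3.3) for TMM, and scanpy 1.11.5, pandas 2.3.3, SciPy 1.17.1, NumPy 2.4.6 and matplotlib 3.10.9 under Python 3.11.15.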

Additional observations from a re-analysis of the deposited data

Results flagged for a closer look

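Effects of opposite sign stood out in 4 places, and none of the differences between them was tested, because each group is 1 library. Cenpa had a log2 ratio of PKA to WT of 0.51 in hyperplasia and -0.92 in tumor. In hyperplasia, G2/M members had a ratio of -0.61 within Luminal Progenitor 1 and 0.71 within Luminal Progenitor 2. In tumors, the G2/M ratio was 2.68 within EMT-like and 1.68 within Lumino-Basal cells, but -0.96 within Luminal Progenitor 1 and -2.01 within Mature Luminal cells. The Lumino-Basal value rested on a single cell with 82 of 95 UMIs, and without the richest cell of each library it was -1.02 (-1.94 to -0.23). The S phase ratio in tumors was 0.56 within EMT-like cells, -0.43 within Luminal Progenitor 1 and -1.31 within Mature Luminal cells. From PKA hyperplasia to PKA tumor, G2/M members had a ratio of 0.53 within Luminal Progenitor 1 and -1.42 within Mature Luminal cells, and S phase members 0.85 and -0.49.

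Barcodes outside the authors' annotation, which enter the comparisons above only where they are said to be added, held the members at levels above those of annotated cells. G2/M members stood at 617 CPM in PKA hyperplasia, 570 in WT hyperplasia and 1312 in WT tumor. S phase members stood at 379 CPM in PKA hyperplasia, 593 in WT hyperplasia, 286 in PKA tumor and 879 in WT tumor. In PKA tumor the G2/M level of 87.4 CPM had an interval (61.5 to 120) that held the annotated level.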

How the results depend on the processing

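No paired analysis was possible because each group is 1 library, and no replicate could be left out. Causes of the moves below were not tested. Log2 ratios are listed as S phase sums, then G2/M sums. With TMM factors, S phase gave 0.18 (WT stages) and 0.25 (PKA stages), and G2/M -0.11 (WT stages, turned) and -0.69 (PKA stages). With these factors 2 S phase members were lower between PKA stages, and the share of all genes lower was not counted. With totals without mitochondrial, ribosomal and milk genes, S phase gave 0.32 between WT stages. The mean of each cell's CPM gave S phase -0.36 (hyperplasia) and -0.29 (tumor). The unweighted class mean gave S phase -0.16 (hyperplasia), -0.29 (tumor), 0.87 (WT stages) and 0.080 (PKA stages), G2/M 0.38, 0.25 (tumor, turned), 0.94 and -0.73, and turned Hells between WT stages to 0.089. All barcodes gave S phase -0.53 (tumor), 0.27 (WT stages) and 0.25 (PKA stages), and G2/M -1.17 (tumor) and -1.04 (PKA stages). Without the 5% of cells with the most UMIs, S phase gave -0.31 (tumor) and 0.53 (PKA stages), and G2/M -0.70 (PKA stages). Without Dut, S phase gave 0.28 between PKA stages.

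Adding the barcodes with more genes gave S phase -0.50 (tumor), 0.30 (WT stages) and 0.28 (PKA stages), and G2/M 0.074 (hyperplasia), -1.07 (tumor) and -1.0 (PKA stages). S phase members lower were then 1 (hyperplasia), 3 (tumor) and 2 (PKA stages), with 0 higher between PKA stages. G2/M members lower were 0 (hyperplasia) and 10 (tumor), with 2 higher between WT stages. In tumor, 6.11% of all genes were lower and 7.17% higher with these barcodes, and the shares for the other comparisons were not counted. Without the cell richest in the list, G2/M gave -0.80 (tumor) and -0.62 (PKA stages), and within tumor classes 2.23 (EMT-like), -1.13 (Luminal Progenitor 1) and -1.02 (Lumino-Basal, turned). Without cells with markers of other types, Basal cells gave 2.24 for G2/M and 0.10 (turned) for S phase members.

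At a minimum of 1.5-fold, S phase members lower were 7 (hyperplasia), 5 (tumor) and 3 (PKA stages), and higher 4 (WT stages) and 6 (PKA stages). G2/M members lower were 4 (hyperplasia), 8 (tumor), 2 (WT stages) and 7 (PKA stages), and higher 4 (WT stages) and 2 (PKA stages). At a minimum of 50 UMIs, 0 G2/M members were lower in hyperplasia, since Bub1 was not tested. Shares of all genes at these minimums were not counted, so these counts have no background beside them.

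Shares of cells moved with depth. In hyperplasia (PKA, WT) and then tumor (PKA, WT), at least 2 S phase members were seen in 1.63%, 2.49%, 1.86% and 3.26% of cells thinned to 1000 UMIs, in 11.9%, 18.0%, 15.7% and 19.1% at 4000 UMIs, and in 5.63%, 7.90%, 27.9% and 22.6% not thinned. At least 2 G2/M members were seen in 1.04%, 1.49%, 0.644% and 1.14% at 1000 UMIs. At 4000 UMIs they were seen in 7.74%, 9.22% and 3.59% of PKA hyperplasia, WT hyperplasia and WT tumor cells, and not thinned in 2.58% of PKA tumor and 3.44% of WT tumor cells. Cells shallower than each depth were left out. Median UMIs per cell were 2557 in PKA and 2637.5 in WT hyperplasia, so at 4000 UMIs most of their cells were left out. Cells with at least 3 G2/M members were deeper, with medians of 4707 and 4653. How far the cells left out moved these shares was not tested. At 2000 UMIs, at least 3 members were seen in 0.974%, 2.61%, 1.35% and 2.40% (S phase) and in 1.54%, 1.58%, 0.571% and 1.26% (G2/M).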
